A study of Mus musculus with 27 samples.

Results

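The nucleosome remodelling and deacetylase (NuRD) complex was followed through 10 of its subunits, chosen by name: the ATP-dependent remodellers Chd3 and Chd4, the histone deacetylases Hdac1 and Hdac2, the histone-binding proteins Rbbp4 and Rbbp7, the scaffold proteins Mta1, Mta2 and Mta3, and Gatad2a. A member was every array probe carrying one of these symbols. Of the 10 genes, 8 had a probe, 20 probes in all among 45281 probes and 30869 symbols on the array. Hdac1 and Gatad2a had no probe of that symbol and were not analysed here.

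NuRD is a repressive chromatin complex that couples nucleosome movement to the removal of acetyl groups from histones. Its remodellers use ATP, its deacetylases act on histone tails, Rbbp4 and Rbbp7 hold the histones, the Mta proteins form the scaffold that binds the deacetylases, and Gatad2a joins the remodeller to an Mbd protein. Either Mbd2 or Mbd3 occupies that place, and Mbd2 brings the complex to methylated CpG, which is why the levels of the other subunits were of interest in cells without Mbd2.

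Cells were sorted from the inflamed colon of wild type (WT) and Mbd2-/- mice on a C57BL/6 background after 6 days of dextran sulfate sodium (DSS), labelled as 2% DSS, and their mRNA was measured on 1-colour Illumina bead arrays. The colon groups were monocytes (CD11b+ Ly6C+) and macrophages (CD11b+ Ly6C- MHC-II+ F4/80+), each with 5 WT and 5 Mbd2-/- arrays, and type 1 conventional dendritic cells (cDC1s, CD11b- CD11c+ CD103+), with 2 WT and 3 Mbd2-/- arrays. The knockout was global, so every cell type of the Mbd2-/- mice lacked the gene, and no colon group without DSS was among these arrays. Mice were 8 to 22 weeks old, matched for age and sex and, where possible, littermates housed together. Up to 10 mice were pooled for a replicate by the methods, and 1 to 5 by the series description, over 3 separate experiments. The last pair of arrays, 1 WT and 1 Mbd2-/-, came from splenic CD4 T cells taken 6 weeks after T cell transfer, with the donor's and host's genotypes not told apart by the labels.

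Values are log2 normalised intensities, called levels here, and probes of one gene are numbered from the highest mean level over the 25 colon arrays. A probe's level was compared between groups and never with the level of another probe. Mean raw intensity was 172 to 353 per array, between 16024 and 18608 probes per array had a detection p below 0.05. Precision is limited by how many arrays each group has. The Mbd2 probe passed that detection threshold on 0 of 27 arrays, WT included, so it could not check the genotype labels. Summed over 6 marker genes, cDC1 marker intensity was 14133 to 16637 on cDC1 arrays and at most 2588 elsewhere, and the sum of 7 macrophage markers was 34313 to 41157 on macrophage arrays and at most 18325 elsewhere. The sum of 5 monocyte markers, 13645 to 19901 on monocyte arrays, was at most 9861 elsewhere. Neutrophil markers summed to 24630 on the WT T cell array and to 5723 on the Mbd2-/- one.

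Before the subunits are compared, 3 colon arrays have to be named, because they stood apart from the others of their cell type. WT cDC1 array 23 lay at least 1 log2 unit above every other cDC1 array for 658 of 23331 probes, and Mbd2-/- macrophage array 20 did so among macrophages for 565 of 26016 probes, whereas the other arrays did so for 0 to 173. Of these probes 286 were shared, 50.6% of those of array 20 and 43.5% of those of array 23, and for 214 of the 286 both T cell arrays also lay above the other 23 colon arrays. WT macrophage array 12 lay as far below every other macrophage array for 507 probes. Monocytes and macrophages also sat in different blocks of 6 columns of the intensity table, as did WT and Mbd2-/- cDC1s. Neither labels nor table name the physical chip, and column position and group cannot be told apart for those comparisons.

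Few NuRD subunit probes passed the comparison of Mbd2-/- with WT cells, as did few of all tested probes. In monocytes, 0 of 11 tested probes of 7 genes passed an adjusted p of 0.05 (limma, Benjamini-Hochberg over all tested probes), against 1.8% of all 16190 probes tested. In macrophages 0 of 12 probes of 8 genes passed, against 5.63% of 16834. In cDC1s 1 of 15 probes of 8 genes passed, against 6.67% of 17838, and it was the second Mta3 probe, which was lower in Mbd2-/- cells. The cDC1 count was 0 without array 23, 28 or 30, 3 without array 27, 4 without macrophage array 20 and 6 without array 26. These p-values rest on a spread between arrays of the same group that is shared by all 6 groups for each probe. In cDC1s that spread therefore comes largely from the monocyte and macrophage arrays. In sorted bulk samples, fewer cells of a type and less RNA per cell cannot be told apart.

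Unadjusted p-values below 0.05 were reached by 1 subunit probe in monocytes (Hdac2), against 13.8% of all probes, and by 3 in macrophages (Mta3 probe 2, Rbbp4 probes 1 and 3), against 23.7%. The 95% intervals of the 11 monocyte differences lay between -0.75 and 0.69 on the log2 scale, and those of the 12 macrophage differences between -0.77 and 0.64. In cDC1s, 7 of 15 probes had an unadjusted p below 0.05, beside 24.2% of all probes. Rbbp7 probes 1 to 3 were among the 7, and they are readings of 1 gene that were all highest on WT array 23. The 3 Mbd2-/- arrays did not overlap the 2 WT arrays for 4 probes. Hdac2 and Mta3 probe 2 were lower, Mta2 and Rbbp4 probe 3 higher. Among all probes 31.8% did not overlap in that comparison. The median difference of the subunit probes was -0.23 in monocytes, -0.02 in macrophages and -0.13 in cDC1s, beside -0.02, -0.07 and 0.03 over all tested probes.

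Marker sums of other cells also differed between the genotypes in cDC1s. Of 9 marker lists, 5 had sums that did not overlap between the WT and Mbd2-/- arrays. Of all single probes, 31.8% did not overlap in the same comparison. Neutrophil markers summed to 642 and 741 on the WT arrays and to 1122 to 2855 on the Mbd2-/- arrays, monocyte markers to 7020 or less and to 7784 to 9861, and macrophage markers to 1436 or less and to 1603 to 3917. Eosinophil markers were higher as well, at 61.9 and 72.7 against 98.1 to 124, and markers of B and plasma cells were lower, at 3040 and 3296 against 2576 to 3036. The cDC1 markers themselves overlapped (15116 and 16637 against 14133 to 16017). The part of other cells in the cDC1 genotype differences given here was not tested.

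**Figure D1:**
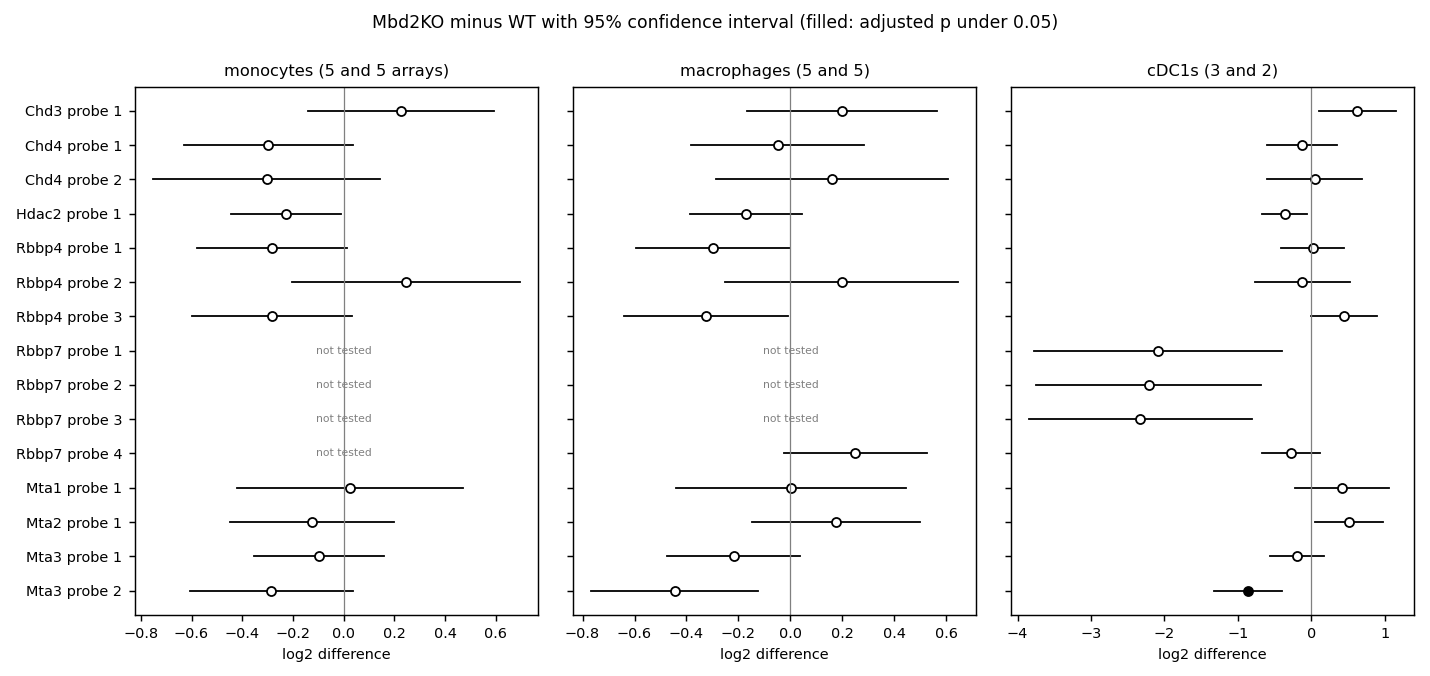
Mbd2-/- minus WT difference (log2 units, x axis, with a wider range in the cDC1 panel) of each tested subunit probe in monocytes, macrophages and cDC1s, with its 95% confidence interval as a line. Only the second Mta3 probe in cDC1s passed an adjusted p of 0.05 (filled point), and the 3 widest intervals, of Rbbp7 in cDC1s, reach from -3.84 to -0.39.

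More subunit probes passed between cell types, and so did more of all tested probes. Compared with monocytes, and averaged over the genotypes, macrophages had more Chd3 and Hdac2 and less Chd4 (probe 2), Mta1 and Mta3 (both probes). Of 12 probes, 2 were higher and 4 lower, beside 18.6% and 15.6% of all 18792 probes. In cDC1s, 5 of 15 probes were higher than in monocytes (Hdac2, Rbbp4 probe 2 and Rbbp7 probes 1 to 3) and 1 was lower (Mta3 probe 2), beside 23.4% and 20% of 22541 probes. Against macrophages, cDC1s had 5 of 15 probes higher (Mta3 probe 1, Rbbp4 probe 2 and Rbbp7 probes 1 to 3) and 1 lower (Rbbp4 probe 1), beside 22.6% and 19.8% of 23337, and 3 in all without array 23 or 27. The 3 Rbbp7 probes passed the detection filter of these comparisons through a few cDC1 and macrophage arrays, and their calls ended without array 23, as detailed with the gene.

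**Figure D2:**
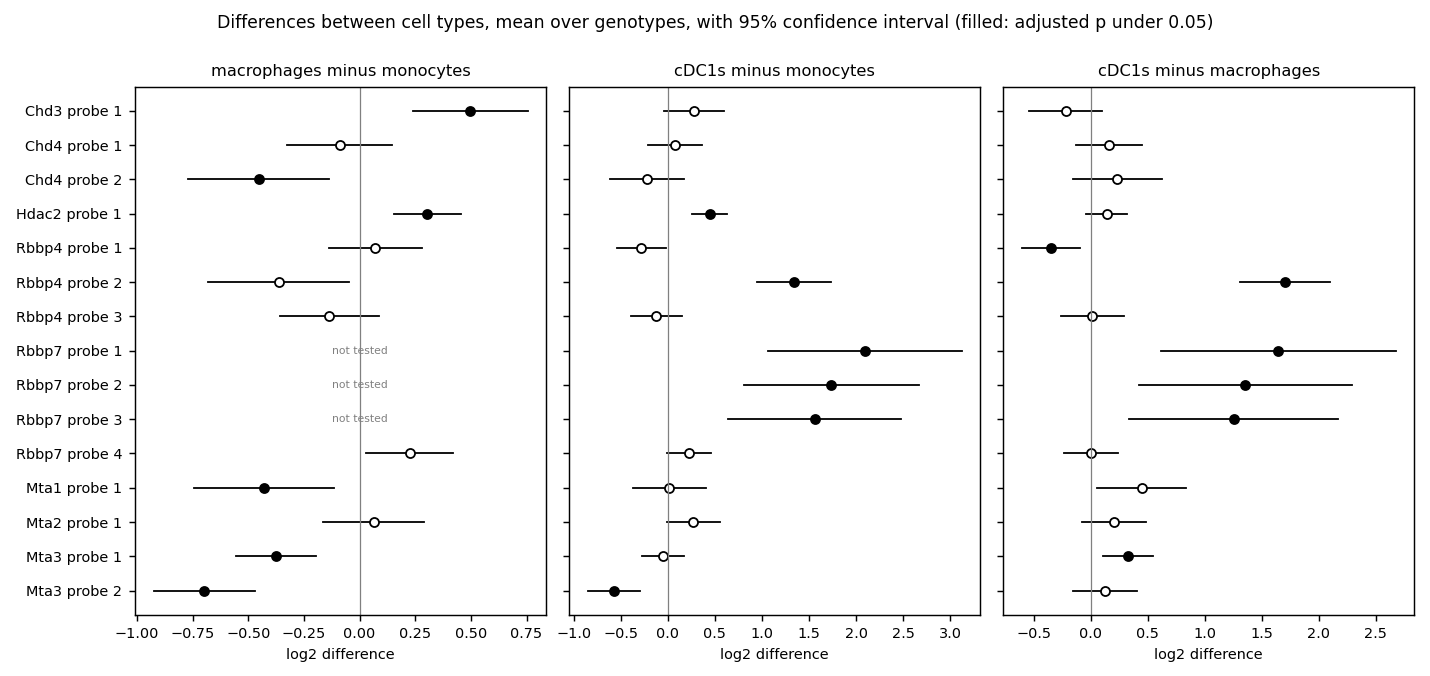
Difference between cell types (log2 units, x axis, averaged over genotypes) of each tested subunit probe, with its 95% confidence interval as a line and filled points for an adjusted p below 0.05. Rbbp4 probe 2 stands out in cDC1s at 1.34 above monocytes and 1.70 above macrophages with narrow intervals, and the Rbbp7 probes have similar differences with wide ones, fitted against monocyte values at background.

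The change of the genotype effect from one cell type to another was tested as well. Between macrophages and monocytes 0 of 12 probes passed, beside 0.0266% of all probes, and 0 reached an unadjusted p below 0.05, beside 6.99%. Between cDC1s and monocytes 0 of 15 passed, beside 0.883%, while 6 had an unadjusted p below 0.05, beside 16.4%, and 4 passed without array 26. Between cDC1s and macrophages 2 of 15 passed, beside 6.55%, both of them Rbbp7 probes that entered through the few arrays where they were high. Without array 26 the last count was 5, without array 27 it was 4, and in most other fits that left out 1 array it was 0 or 1.

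Of the remodellers, Chd3 differed between cell types. Chd3 levels in WT monocytes were 6.71, 6.66, 6.77, 6.72 and 6.59, and in Mbd2-/- monocytes 7.16, 6.83, 7.33, 6.56 and 6.70. In WT macrophages they were 6.96, 7.51, 7.20, 7.14 and 7.19, and in Mbd2-/- macrophages 7.44, 7.66, 7.53, 7.45 and 6.91. Macrophages were thus mostly above monocytes, although single Mbd2-/- monocyte arrays reached the macrophage range. The difference was 0.50 (SE 0.12, adjusted p = 0.0029, limma), and it passed without each array in turn (0.45 to 0.56), but with WT arrays alone it was 0.52 with an adjusted p of 0.0635.

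In cDC1s, Chd3 levels were 6.22 and 7.32 on the WT arrays and 7.30, 7.53 and 7.35 on the Mbd2-/- arrays. Only array 23 was low, and the other WT array was inside the Mbd2-/- range. The genotype difference was 0.63 (SE 0.25, adjusted p = 0.131), and it was 0.08 without array 23. The differences of cDC1s from macrophages (-0.22, adjusted p = 0.271) and monocytes (0.28, adjusted p = 0.155) did not pass, with 95% intervals of -0.54 to 0.10 and -0.04 to 0.60. Without array 23 the difference from monocytes was 0.55 and passed (adjusted p = 0.0055), and without array 26 the genotype difference (1.17, adjusted p = 0.0055) and the difference from macrophages (-0.49, adjusted p = 0.0117) passed, the latter also with median scaling (-0.68, adjusted p = 0.0247). The second Chd3 probe was above background on 1 colon array and was not tested.

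Chd4, the remodeller most often found in the complex, was measured by a bright probe at 8.51 to 9.41 in monocytes, 8.57 to 9.37 in macrophages and 8.63 to 9.50 in cDC1s. All ranges overlapped. No comparison of this probe passed on all arrays with quantile normalisation. cDC1s exceeded macrophages by 0.38 when array 23 was left out, a fit with a single WT cDC1 array. Its genotype differences were -0.30 (95% interval -0.63 to 0.04) in monocytes, -0.05 (-0.38 to 0.28) in macrophages and -0.13 (-0.61 to 0.35) in cDC1s. Its cDC1 to monocyte difference of 0.07 (adjusted p = 0.708) turned to -0.48 (adjusted p = 0.0478) when arrays were scaled by their medians, a setting that moves the median of all probes in this comparison to -0.15.

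The second, dimmer Chd4 probe was lower in macrophages than in monocytes. Its levels were 6.32, 4.76, 5.27, 5.33 and 5.35 in WT monocytes and 4.73, 5.04, 5.14, 5.36 and 5.24 in Mbd2-/- monocytes. In macrophages they were 4.69, 4.46, 4.92, 5.01 and 4.52 (WT) and 5.09, 5.10, 4.67, 4.97 and 4.57 (Mbd2-/-), with 3 of these 10 arrays not above background. The difference was -0.45 (SE 0.15, adjusted p = 0.0232, limma) with overlapping ranges. It was -0.72 with WT arrays alone and -0.21 with Mbd2-/- arrays alone (adjusted p = 0.0793 and 0.317), and the call also ended with median scaling (adjusted p = 0.11), no filter (0.0566), array weights (-0.32, adjusted p = 0.0708) and without arrays 12, 20 and 23 (adjusted p = 0.0598). The bright Chd4 probe did not share it: its macrophage to monocyte difference was -0.09 (95% interval -0.32 to 0.14). The third Chd4 probe was above background only on cDC1 array 23 among the colon arrays, at 5.02, and on both T cell arrays.

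Hdac2, one of the catalytic deacetylases, was lowest in monocytes. Its levels were 8.80, 9.31, 9.20, 9.16 and 9.20 in WT monocytes and 9.02, 8.86, 8.70, 9.16 and 8.78 in Mbd2-/- monocytes. WT macrophages had 9.32, 9.47, 9.33, 9.47 and 9.46, and Mbd2-/- macrophages 9.24, 9.02, 9.23, 9.31 and 9.39. WT macrophages lay above all WT monocytes, and the Mbd2-/- arrays overlapped a little. Macrophages were higher by 0.30 (SE 0.07, adjusted p = 0.0021, limma), a call kept without each array in turn and lost with WT arrays alone (0.28, adjusted p = 0.117) and with median scaling (0.27, adjusted p = 0.238).

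cDC1 levels of Hdac2 were 9.58 and 9.71 in WT cells and 9.28, 9.21 and 9.35 in Mbd2-/- cells. Both WT arrays were above the 3 Mbd2-/- arrays, yet the difference of -0.36 (SE 0.15) did not pass (adjusted p = 0.133, 95% interval -0.67 to -0.06). The same sign was measured in monocytes (-0.23, adjusted p = 0.322) and macrophages (-0.17, adjusted p = 0.324), where within the blocks of columns it was -0.13 and -0.32 in monocytes and -0.02 and -0.30 in macrophages. cDC1s exceeded monocytes by 0.44 (SE 0.09, adjusted p = 0.000225), but the sign flipped to -0.15 (adjusted p = 0.569) with median scaling. cDC1s and macrophages, neighbours in this order, differed by 0.14 (adjusted p = 0.218). The second Hdac2 probe was not well above background on any array.

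**Figure D3:**
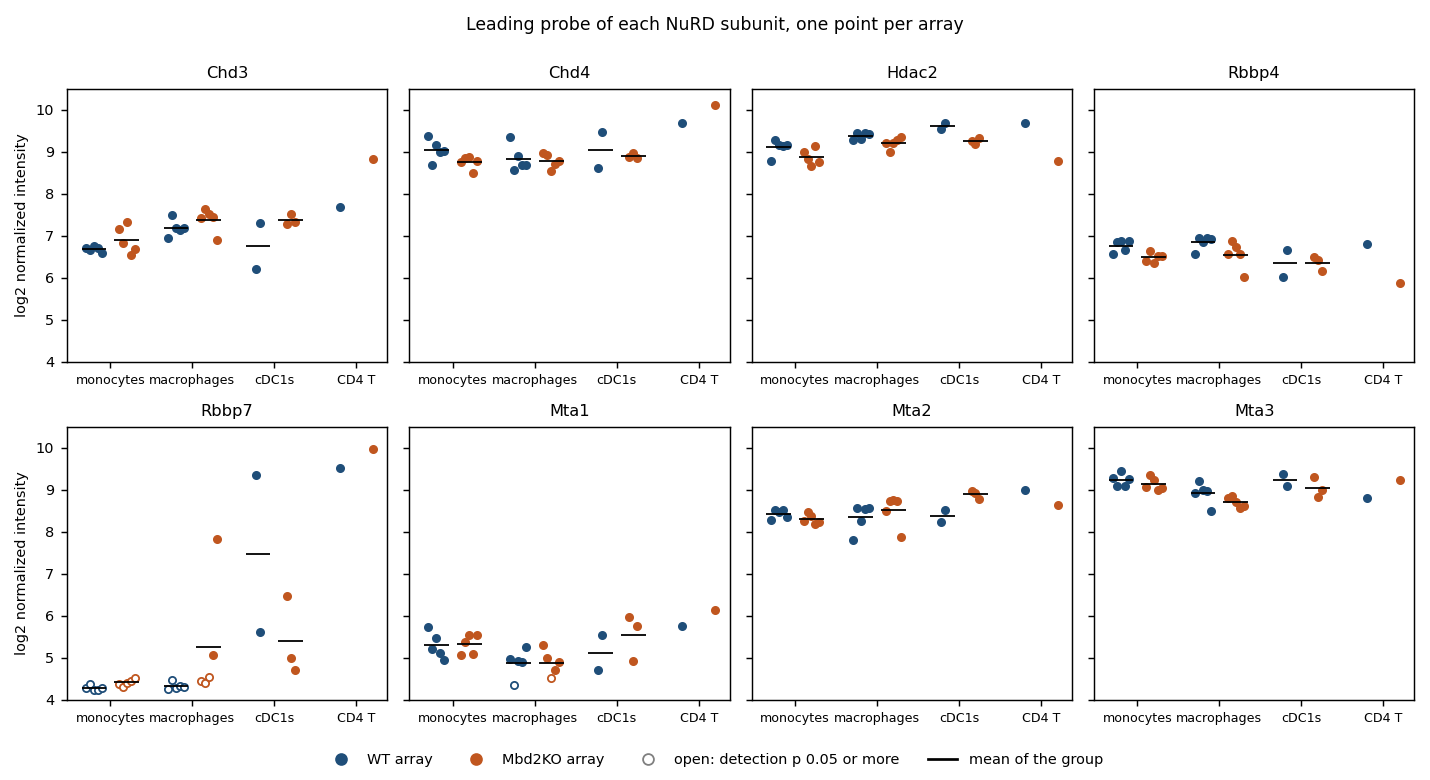
Level (log2 normalised intensity over the 27 arrays, y axis) of the leading probe of each measured subunit on every array by cell type, blue for WT and orange for Mbd2-/-, with bars at group means and open symbols for arrays not above background. Most subunits occupy the same range in all colon groups, whereas Rbbp7 is at background in monocytes and reaches 9.34 on one WT cDC1 array and 9.97 on a T cell array.

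Rbbp4 and Rbbp7 are closely related WD40 proteins that NuRD shares with the Sin3 and PRC2 complexes. They were the subunits with the largest differences, and because CpG is the letter pair Mbd2 reads, the bases before their RefSeq transcription starts are printed with each CpG in capitals. DNA methylation was not measured, and these are reference sequences of GRCm38.p6. The windows are chrX:162760122-162760371 on the plus strand for Rbbp7 and chr4:129335371-129335620 on the minus strand for Rbbp4, each holding 250 bases and ending at the start site.
Rbbp7 promoter: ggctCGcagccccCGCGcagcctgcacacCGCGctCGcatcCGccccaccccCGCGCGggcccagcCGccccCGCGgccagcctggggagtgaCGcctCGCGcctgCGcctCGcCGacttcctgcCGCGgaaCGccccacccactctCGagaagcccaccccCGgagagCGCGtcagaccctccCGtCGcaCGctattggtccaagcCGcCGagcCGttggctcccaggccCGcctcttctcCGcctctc
Rbbp4 promoter: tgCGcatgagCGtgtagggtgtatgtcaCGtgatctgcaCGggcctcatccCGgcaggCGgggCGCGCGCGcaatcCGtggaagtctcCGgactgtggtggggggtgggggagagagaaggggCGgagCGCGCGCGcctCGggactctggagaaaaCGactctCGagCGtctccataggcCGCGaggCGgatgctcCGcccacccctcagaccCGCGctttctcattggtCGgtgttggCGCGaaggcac
The Rbbp7 window held 34 CpG and the Rbbp4 window 30, where the median of 32841 promoter windows of this length was 6 and 97.0% and 94.8% of windows had as many or fewer. Of the 10 genes 7 had a promoter in the table, and in the others CpG numbered 39 for Mta1, 27 for Hdac2, 24 for Mta2, 12 and 23 for the starts of Chd4 and 20 and 18 for those of Gatad2a. CCAAT, searched on both strands, occurred once in each of the printed windows and in 33.9% of all windows.

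Rbbp7 was not detected in monocytes and WT macrophages by its first 3 probes and was very uneven elsewhere. Its first probe was not well above background on any of 10 monocyte arrays, where levels were 4.23 to 4.53, nor on the 5 WT macrophage arrays, at 4.26 to 4.48. In Mbd2-/- macrophages the levels were 4.44, 4.40, 4.55, 5.07 and 7.86, of which the last pair, arrays 19 and 20, was above background. In cDC1s they were 9.37 and 5.61 (WT, arrays 23 and 26) and 6.48, 5.00 and 4.72 (Mbd2-/-, arrays 27, 28 and 30), all above background. Arrays 20 and 23 therefore held most of the signal, and they are the arrays described above as standing apart.

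Probes 2 and 3 of Rbbp7 repeated this pattern on the same arrays. Probe 2 had 8.69 and 5.68 in WT cDC1s, 6.07, 4.36 and 4.47 in Mbd2-/- cDC1s and 7.58 on macrophage array 20. Probe 3 had 8.75 and 5.26 in WT cDC1s, 5.55, 4.25 and 4.24 in Mbd2-/- cDC1s and 7.25 on macrophage array 20. Both were at background on arrays 28 and 30 and in all monocytes. Probe 4 behaved otherwise, with levels of 4.21 to 5.14 on all colon arrays and no comparison that passed on all arrays. Its difference between macrophages and monocytes passed without array 14 or 20 (0.26 and 0.27, adjusted p = 0.0344 and 0.0242), without arrays 20 and 23 (adjusted p = 0.0263), without arrays 12, 20 and 23 (adjusted p = 0.0475) and with label numbers 10 apart as a random block (0.22, adjusted p = 0.041). Probe 5 was not above background on any array. The probes of this gene thus disagreed, and whether they read the same transcripts could not be checked because probe sequences were not used here.

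**Figure D4:**
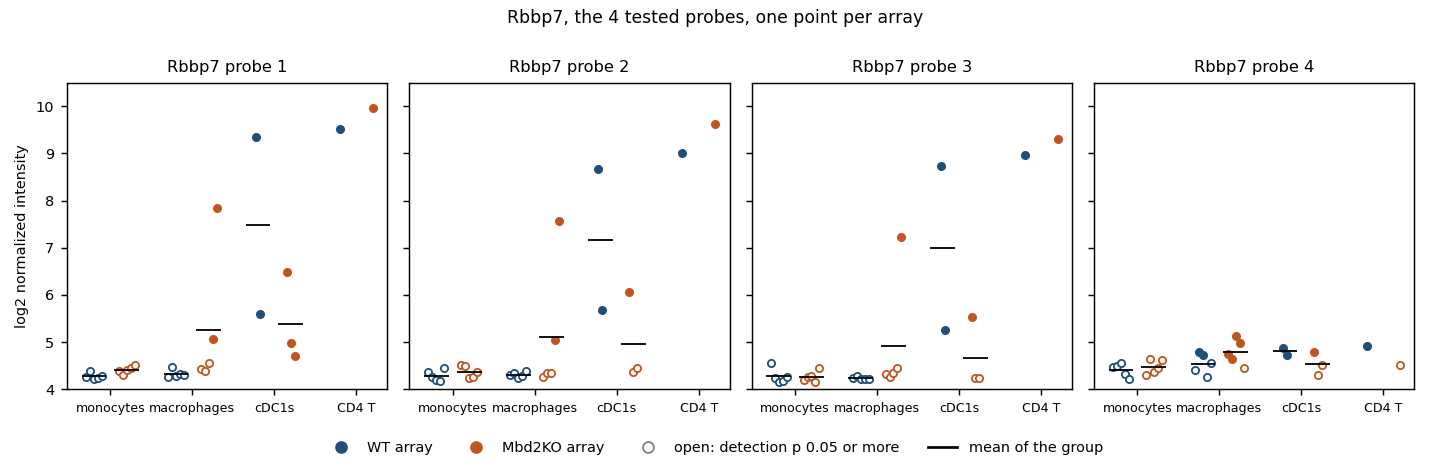
Level (log2 normalised intensity over the 27 arrays, y axis) of the 4 tested Rbbp7 probes on every array by cell type, blue for WT and orange for Mbd2-/-, open symbols for arrays not above background and bars for group means. Probes 1 to 3 share a single high macrophage array, a single very high WT cDC1 array and high T cell arrays, and probe 4 stays low on all arrays.

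Between cell types, the mean of the first Rbbp7 probe was at least 3.03-fold higher in cDC1s than in monocytes. The means of probes 2 and 3 were at least 2.32-fold and 1.96-fold higher. Each is a bound because the monocyte arrays were all below background. The cDC1 means rest largely on array 23, at 9.37, 8.69 and 8.75, and are not bounds for the other cDC1 arrays. Without array 23 the fitted differences from the monocyte levels at background were 1.16, 0.99 and 0.69 log2 units. These probes were tested there only through the cDC1 arrays on which they were above background, 5 of 5 for probe 1 and 3 of 5 for probes 2 and 3, so the adjusted p-values of 0.0012, 0.0027 and 0.0057 (limma) are a description. Without array 23 they were 0.0656, 0.111 and 0.231. The first probe remained above every monocyte level on all 5 cDC1 arrays. Against macrophages the differences were 1.65, 1.36 and 1.25 (adjusted p = 0.0091, 0.0174 and 0.025), they were 0.71, 0.60 and 0.38 without array 23 (adjusted p = 0.299, 0.375 and 0.554), and probe 2 turned to -0.15 with Mbd2-/- arrays alone. Without Mbd2-/- cDC1 array 27, probes 2 and 3 did not pass either (adjusted p = 0.0643 and 0.0792).

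The WT to Mbd2-/- difference of Rbbp7 in cDC1s was large and did not pass. It was -2.09 (SE 0.81, adjusted p = 0.117), -2.22 (SE 0.74, adjusted p = 0.0708) and -2.33 (SE 0.73, adjusted p = 0.0561) for probes 1 to 3, and the WT arrays lay far apart. Array 26 lay below array 27 on each of these probes, so the genotypes overlapped. Probes 2 and 3 were above background on 2 of 2 WT arrays and on 1 of 3 Mbd2-/- arrays. They met the detection filter through the WT arrays, and the size of their differences depends partly on the background level. Their p-values, here and with arrays left out, are therefore a description. Leaving out array 23 made the differences -0.21, -0.71 and -0.59, and leaving out macrophage array 20 let all of them pass (adjusted p = 0.0362, 0.0137 and 0.0128) at the same size. All 3 also passed without WT array 26 (-3.98, -3.73 and -4.07), and probes 2 and 3 passed without array 27 (-2.78 and -2.77).

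Compared with the genotype effect in macrophages, that of cDC1s differed by -3.02 log2 units for each of these probes, and probes 2 and 3 passed (SE 0.90 and 0.88, adjusted p = 0.0462 and 0.0432, limma) while probe 1 had an adjusted p of 0.0665. Probes 1 to 3 were above background on 0 of 5 WT macrophage arrays and on 2, 2 and 1 of 5 Mbd2-/- ones. They entered the comparison through the few arrays where they were high, so these adjusted p-values are a description. The result drew on 1 high WT cDC1 array and 1 high Mbd2-/- macrophage array. Without both arrays the difference was -0.90 and -0.71 (adjusted p = 0.41 and 0.384) for probes 2 and 3, and without array 23 alone -1.51 and -1.29. Probes 2 and 3 lost their call in 18 and 16 of the 25 fits that left out 1 array.

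Marker sums were read on the arrays with high Rbbp7. The summed intensity of 6 CD4 T cell markers was 2845 on cDC1 array 23, 702 on array 26, 1219 on array 27, 2337 on array 28 and 506 on array 30, against 234 to 598 on monocyte and macrophage arrays and 24422 and 24817 on T cell arrays. Rbbp7 was at 5.00 or less on array 28. Macrophage array 20 had a T cell sum of 424, inside the macrophage range, and all 6 of these markers were detected on each macrophage array. The sum of 15 markers of dividing cells was 5642 on array 23, the lowest of the cDC1s, whose highest was 8257, and 2997 on array 20, within the 2976 to 3729 of macrophages. Among the other lists, array 23 was the highest cDC1 array for epithelial markers (4980, the others 1558 to 4254) and for B and plasma cell markers. It was the lowest for macrophage, neutrophil and eosinophil markers. Array 20 was the highest macrophage array for monocyte markers (7893, the others 4047 to 6867) and inside the macrophage range for the remaining lists. The part of other cells in the Rbbp7 signal was not tested.

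Rbbp4 gave the most repeatable difference among cell types, on its second probe. Its levels in cDC1s were 7.81 and 7.87 (WT) and 8.00, 7.27 and 7.86 (Mbd2-/-). In monocytes they were 6.68, 6.56, 6.02, 6.20 and 6.09 (WT) and 6.39, 6.86, 6.56, 6.09 and 6.88 (Mbd2-/-). In macrophages they were 5.78, 5.36, 6.31, 5.80 and 6.60 (WT) and 6.14, 6.50, 6.28, 5.66 and 6.25 (Mbd2-/-). All 5 cDC1 arrays were above all 20 others.

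The second Rbbp4 probe was higher in cDC1s than in macrophages by 1.70 (SE 0.19, adjusted p = 7.5e-08, limma) and than in monocytes by 1.34 (SE 0.19, adjusted p = 2.5e-06). Leaving out each array in turn gave 1.62 to 1.82 and 1.27 to 1.46, and every such fit passed. Monocytes and macrophages, neighbours in this order, differed by -0.36 (adjusted p = 0.0691), which passed without monocyte array 9 (adjusted p = 0.0369) or macrophage array 15 (adjusted p = 0.0211), and with label numbers 10 apart as a random block (adjusted p = 0.042). The genotypes overlapped in each cell type, with differences of 0.25, 0.20 and -0.13 in monocytes, macrophages and cDC1s (adjusted p = 0.669, 0.612 and 0.846).

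The other Rbbp4 probes did not follow it. The first probe was lower in cDC1s (6.03 and 6.67 in WT, 6.50, 6.43 and 6.16 in Mbd2-/- cells) than in macrophages (6.01 to 6.95), with a difference of -0.35 (SE 0.12, adjusted p = 0.0238), a call lost without array 23 (-0.19, adjusted p = 0.322) or array 30 (-0.30, adjusted p = 0.0706), with Mbd2-/- arrays alone (-0.19, adjusted p = 0.371) and with the compared cell types alone (adjusted p = 0.0731). Its difference from monocytes, -0.28 (adjusted p = 0.0715), passed without array 20 (adjusted p = 0.0305) or 26 (adjusted p = 0.0113), with median scaling (-0.60, adjusted p = 0.0265) and with cyclic loess (adjusted p = 0.0388). The third probe passed no comparison of cell types on all arrays, although cDC1s exceeded macrophages with Mbd2-/- arrays alone (0.38, adjusted p = 0.0433), and it was at 4.61 to 5.50 in cDC1s, 4.56 to 5.32 in macrophages and 4.63 to 5.47 in monocytes. The probes of Rbbp4 therefore disagree in direction, and the second is the one for which the table gives no RefSeq accession.

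**Figure D5:**
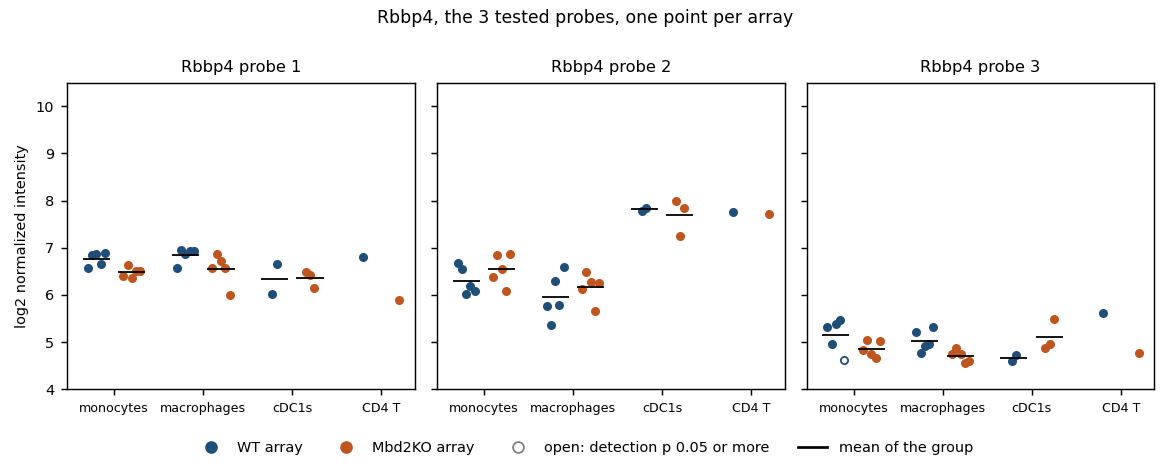
Level (log2 normalised intensity over the 27 arrays, y axis) of the 3 tested Rbbp4 probes on every array by cell type, blue for WT and orange for Mbd2-/-, with bars at group means and an open symbol for the array not above background. Only probe 2 sets the cDC1s (7.26 to 7.98 on this scale) apart from monocytes and macrophages, with the T cell arrays at 7.75 and 7.72.

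By genotype, the first Rbbp4 probe was 6.58, 6.86, 6.88, 6.66 and 6.90 in WT and 6.42, 6.64, 6.36, 6.52 and 6.52 in Mbd2-/- monocytes. In macrophages it was 6.57, 6.95, 6.87, 6.95 and 6.93 in WT and 6.58, 6.89, 6.73, 6.57 and 6.01 in Mbd2-/- cells. Most WT arrays were higher, with overlap in both cell types. The differences were -0.28 (adjusted p = 0.38) and -0.30 (adjusted p = 0.204), and within the blocks of columns they were -0.26 and -0.31 in monocytes and -0.50 and -0.21 in macrophages. The third probe had the same sign, -0.28 (adjusted p = 0.427) and -0.32 (adjusted p = 0.195), and in cDC1s it was 0.44 (adjusted p = 0.217).

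Among the scaffolds, Mta1 was low in macrophages. Its levels were 5.75, 5.22, 5.47, 5.13 and 4.97 in WT monocytes and 5.08, 5.39, 5.55, 5.09 and 5.55 in Mbd2-/- monocytes. WT macrophages had 4.97, 4.35, 4.94, 4.92 and 5.27 and Mbd2-/- macrophages 5.32, 5.01, 4.52, 4.71 and 4.90, with 2 of the 10 not above background. The ranges overlapped. The difference was -0.43 (SE 0.15, adjusted p = 0.0298, limma), and it ended in 7 of 25 fits without 1 array, namely without monocyte arrays 1, 3, 8 or 10 or macrophage arrays 12, 18 or 19 (-0.41 to -0.36, highest adjusted p = 0.0661). The call also ended with WT arrays alone (-0.44, adjusted p = 0.191), with Mbd2-/- arrays alone (-0.42, adjusted p = 0.128), with median scaling (adjusted p = 0.107) and with no filter (adjusted p = 0.072).

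cDC1 levels of Mta1 were 4.71 and 5.55 (WT) and 5.97, 4.92 and 5.75 (Mbd2-/-), a spread wider than in the other cell types. Their difference from macrophages was 0.45 (adjusted p = 0.0577) and from monocytes 0.02 (adjusted p = 0.951). Without array 23 the difference from macrophages was 0.66 and passed (adjusted p = 0.0187), as it did without macrophage array 15 or 16 or cDC1 array 28. Genotype differences of Mta1 were 0.03, 0.00 and 0.42 in monocytes, macrophages and cDC1s, and none passed (adjusted p = 0.974, 0.996 and 0.434).

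Mta2, another scaffold, passed no comparison of all arrays. It was at 8.21 to 8.55 in monocytes, 7.82 to 8.78 in macrophages and 8.26 to 9.01 in cDC1s, and the ranges overlapped. The differences were 0.06 between macrophages and monocytes, 0.27 between cDC1s and monocytes and 0.21 between cDC1s and macrophages (adjusted p = 0.718, 0.115 and 0.238), the second of which passed without macrophage array 20 (adjusted p = 0.048), without arrays 20 and 23 (0.34, adjusted p = 0.0409) or 12, 20 and 23 (adjusted p = 0.035), with the compared cell types alone (adjusted p = 0.0148) and with Mbd2-/- arrays alone, where it was 0.59 (adjusted p = 0.0146). cDC1 levels were 8.26 and 8.55 in WT cells and 9.01, 8.94 and 8.80 in Mbd2-/- cells. The 3 Mbd2-/- arrays were above both WT arrays, by 0.51 on average (SE 0.22, adjusted p = 0.162), while the differences in monocytes and macrophages were -0.12 and 0.17 (adjusted p = 0.785 and 0.521).

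Mta3, the remaining scaffold, differed most clearly between macrophages and monocytes, on both probes. The second probe had 8.42, 8.43, 8.41, 8.04 and 7.82 in WT monocytes and 7.75, 8.13, 7.81, 7.96 and 8.04 in Mbd2-/- monocytes. It had 7.71, 7.84, 7.65, 7.66 and 7.17 in WT macrophages and 7.35, 7.39, 7.39, 6.78 and 6.90 in Mbd2-/- macrophages. Mbd2-/- monocytes and macrophages did not overlap, and in WT cells the lowest monocyte array lay just under the highest macrophage array. The macrophage to monocyte difference was -0.70 (SE 0.11, adjusted p = 2.2e-05, limma) on this probe and -0.37 (SE 0.09, adjusted p = 0.0015) on the first. Both calls held without each array in turn, and on the first probe the call was lost with median scaling (-0.40, adjusted p = 0.0971) and with WT arrays alone (-0.32, adjusted p = 0.145).

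The first Mta3 probe ranged over 9.03 to 9.47 in monocytes and 8.53 to 9.24 in macrophages, with overlap. In cDC1s it was 9.42 and 9.11 (WT) and 9.32, 8.86 and 9.01 (Mbd2-/-), which exceeded macrophages by 0.33 (adjusted p = 0.0149). That call ended without array 23 (0.25, adjusted p = 0.131) or 27 (0.26, adjusted p = 0.0556), and median scaling turned the sign (-0.23, adjusted p = 0.409). With WT arrays alone it did not pass either (0.32, adjusted p = 0.209). cDC1s and monocytes, neighbours for this probe, differed by -0.05 (adjusted p = 0.756), and by -0.63 with median scaling (adjusted p = 0.0183).

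The second Mta3 probe carried the single genotype call. In cDC1s it was 8.10 and 7.79 in WT cells and 7.23, 6.85 and 7.14 in Mbd2-/- cells, with no overlap. The difference was -0.87 (SE 0.22, adjusted p = 0.0224, limma), and the call ended without array 23 (-0.72, adjusted p = 0.198), 28 (-0.76, adjusted p = 0.0754) or 30 (-0.90, adjusted p = 0.051), with array weights (-0.87, adjusted p = 0.142) and with the cDC1 arrays fitted alone (-0.81, adjusted p = 0.355). The first Mta3 probe gave -0.20 (SE 0.18, adjusted p = 0.526) in the same comparison.

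In macrophages the second Mta3 probe differed between the genotypes by -0.44 (SE 0.15, adjusted p = 0.0848), and this value passed (-0.56, adjusted p = 0.0273) without WT array 15, the lowest WT array. It was -0.90 within the first block of columns and -0.04 within the second. In monocytes it was -0.28 (adjusted p = 0.438), and -0.42 and -0.03 within blocks. The genotype effect in cDC1s minus that in macrophages did not pass (-0.42, SE 0.27, adjusted p = 0.362). Against monocytes, cDC1s differed by -0.57 (SE 0.13, adjusted p = 0.0012) on this probe, which with WT arrays alone was -0.28 (adjusted p = 0.361), and against macrophages they differed by 0.13 (adjusted p = 0.49).

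The T cell arrays, 1 per genotype, allow values and no test. Their neutrophil marker sums were 24630 (WT) and 5723 (Mbd2-/-), and the part of other cells in the differences given here was not tested. Of the 20 probes, 15 were above background on both arrays. Chd3 was 7.68 on the WT and 8.82 on the Mbd2-/- array, a difference of 1.14, the only one of at least 1 log2 unit among the subunits, beside 3.84% of 19937 probes. Hdac2 was 9.69 and 8.78, and Rbbp4 probe 1 was 6.81 and 5.89, both with a difference of -0.92. With median scaling the Chd3 difference was 0.35 and that of Hdac2 -1.47, a setting that shifts the median of all probes here to -0.38.

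Rbbp7 was high on both T cell arrays. The first probe had 9.51 (WT) and 9.97 (Mbd2-/-), the second 9.02 and 9.62 and the third 8.96 and 9.31, all above the 25 colon arrays, whose highest value on the first probe was 9.34 on this scale. Chd3 probe 1 and Chd4 probes 1 and 3 were also above all colon arrays on both T cell arrays. That made 6 of 20 subunit probes, from Rbbp7, Chd3 and Chd4 only, and 0 were below all colon arrays. Among the 19937 probes above background on a T cell array, 20.9% were above and 9.98% below all colon arrays. The 20 subunit probes include some at background there. The second Rbbp4 probe, at 7.75 and 7.72, was at the cDC1 level.

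By correlation over the 25 colon arrays, the gene most like each subunit's leading probe was Scly for Chd3 (Pearson r = 0.832), Arrb1 for Chd4 (0.756), Sfrs7 for Hdac2 (0.868), Usp36 for Rbbp4 (0.853), Prosc for Rbbp7 (0.956), Sh3bp1 for Mta1 (0.852), Ascc1 for Mta2 (0.844) and Slc6a6 for Mta3 (0.874). Points of one group share cell type and genotype, and the highest of a very large number of values was taken, so these are descriptions. Prosc shared the 2 high arrays of Rbbp7, and without arrays 20 and 23 its r was 0.788. For the other subunits r without those arrays was 0.761 to 0.865.

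Genes that work with these subunits were read from lists of NuRD partners and recruiters, of the Sin3, CoREST, CAF-1, PRC2 and NURF complexes that share subunits with NuRD, and of related deacetylases and remodellers. By genotype, 0 of 56 probes passed in monocytes, 0 rose and 3 of 59 fell in macrophages, and 1 of 62 rose and 6 fell in cDC1s, beside 2.57% of all probes lower in macrophages and 3.43% higher and 3.24% lower in cDC1s. Those that fell in Mbd2-/- macrophages were Bcl6 (-0.59), Ikzf1 (-0.47), both DNA-binding repressors, and the remodeller Chd9 (-0.48). Without array 20 only Bcl6 passed. The other NuRD subunits and partners with a tested probe had 0 calls by genotype.

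PRC2, the polycomb methyltransferase complex that contains Rbbp4 or Rbbp7, had 2 of 4 probes lower in Mbd2-/- cDC1s, beside the same 3.24% of all probes. Ezh2, its catalytic subunit, was 7.69 and 6.20 in WT and 4.92, 4.98 and 4.26 in Mbd2-/- cDC1s, without overlap. The difference was -2.22 (SE 0.34, adjusted p = 0.0008, limma). This probe was above background on 2 of 3 Mbd2-/- arrays, so the size of the difference depends partly on the background level. Without array 23 the Ezh2 difference was -1.48 and passed (adjusted p = 0.0276). Suz12 was 9.28 and 10.13 in WT and 9.16, 8.83 and 8.77 in Mbd2-/- cDC1s, a difference of -0.78 (SE 0.19, adjusted p = 0.0177), which was -1.22 without array 23 (adjusted p = 0.0013). The second tested Ezh2 probe, with means of 5.41 in WT and 4.86 in Mbd2-/- cDC1s, did not pass.

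In the Sin3 complex, which shares Hdac1, Hdac2, Rbbp4 and Rbbp7 with NuRD, 3 of 16 probes were lower in Mbd2-/- cDC1s, beside 3.24% of all probes, and 2 of the 3 are probes of one gene. The bright probe of Arid4a, a Sin3-associated protein, was 8.13 and 7.97 in WT and 6.84, 6.02 and 6.52 in Mbd2-/- cDC1s, a difference of -1.59 (SE 0.40, adjusted p = 0.02). Without array 23 it was -1.52 and did not pass (adjusted p = 0.133). Another Arid4a probe (-0.68) lost its call likewise (adjusted p = 0.097). Kdm5a, a histone demethylase, was above background on 0 of 3 Mbd2-/- arrays and was tested only through the WT arrays, so its change is a bound, at least 1.30-fold lower in Mbd2-/- cells. The remaining calls in cDC1s, the remodeller Chd1 (-1.34) and 1 probe of Zmynd8 (0.76), ended without array 23. The other Zmynd8 probes went the other way and did not pass. Their means were 5.84, 6.08 and 8.65 in Mbd2-/- cDC1s against 6.52, 6.54 and 8.74 in WT cDC1s.

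Between cell types the same lists had 9 of 65 probes higher and 12 lower in macrophages than in monocytes, beside 18.6% and 15.6% of all probes. In cDC1s 16 of 74 were higher and 16 lower than in monocytes, beside 23.4% and 20%, and 22 of 80 were higher and 14 lower than in macrophages, beside 22.6% and 19.8%. Chaf1a, a subunit of the CAF-1 histone chaperone that also contains Rbbp4, was higher in cDC1s than in monocytes by 1.90 (SE 0.16), and its difference from macrophages passed too (adjusted p = 3.9e-06). Mbd3, which takes the place of Mbd2 in the complex, was higher in cDC1s by 0.90 (SE 0.33, adjusted p = 0.0299) and 1.46 (SE 0.33, adjusted p = 0.0009), and Gatad2b, the paralogue of Gatad2a, was lower in cDC1s than in monocytes on both probes (-0.89 and -0.80, each above background on 1 of 5 cDC1 arrays). Without array 23, 12 probes were higher and 13 lower than in monocytes, and 17 higher and 14 lower than in macrophages.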

How the data were processed

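RNA of sorted cells was labelled with Cy3 and hybridised by the authors to Illumina mouse bead arrays. They deposited a table of mean bead intensity per probe and array, not yet normalised, together with a detection p-value per probe, the chance of such an intensity among negative control probes. Per the labels the authors used lumi and limma, with versions not given in the sources used here. The kit for RNA extraction differs between the labels (RNeasy) and the methods (mirVana). The table has 3 further signal columns that match no sample label, and they were left out.

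From these intensities, background was corrected by normexp (limma 3.58.1, R 4.3.3) with the negative control mean and spread inferred from the detection p-values and an offset of 16, followed by quantile normalisation and log2. The 25 colon arrays were normalised together, and all 27 for values that include T cells. A probe entered a comparison if its detection p was below 0.05 on a number of arrays no smaller than the smallest group compared. One limma model with 6 groups and 25 arrays gave 3 genotype comparisons, 3 comparisons of cell types with equal weight on each genotype, and 3 differences of genotype effects, with Benjamini-Hochberg adjustment over all tested probes. The procedure was tested on simulated data. A fold against a group in which no array was above background is a bound, set against the lowest detected signal of each array or the probe's own level, whichever was higher.

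All members with their probes are named. The other genes are those that passed in lists of partner complexes, read for calls and the larger differences, and the gene with the highest Pearson r for each member. Members and lists were chosen with earlier results of these data known. The array numbers in the labels run on through the groups and give no shared replicate number, and the check with numbers 10 apart as a block stands with the alternatives. The alternatives were another estimate of the background, another offset, scaling by medians, cyclic loess, other detection filters and thresholds, array weights, fits on fewer cell types or 1 genotype, blocks, and leaving out arrays. Promoter windows came from RefSeq (GRCm38.p6) and were matched by symbol for 7 of 10 members.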

Additional observations from a re-analysis of the deposited data

Results flagged for a closer look

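In groups of 5 arrays, the gap of the highest or lowest array to the next was set against the group's whole range for 50 groups of subunit probes. Only groups with at least 1 array above background were looked at. The gap was unusually wide in 5 of the 50, where chance gives about 5 percent of groups chosen without regard to their levels. On Mbd2-/- macrophage array 20 the gap was 0.805, 0.761 and 0.937 of the range for Rbbp7 probes 1, 2 and 3. These are 3 readings of 1 array and not independent of each other. Their groups entered only through 2, 2 and 1 arrays above background, array 20 among them, so the chance rate does not hold for them. Mta3 probe 2 was low on WT macrophage array 15 (0.716 of the range), and Rbbp4 probe 1 was low on WT macrophage array 11 (0.775 of the range).

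The genotype effect on Rbbp7 differed between cDC1s and macrophages by -3.02 on probe 2 and by -3.02 on probe 3 (log2 units, adjusted p = 0.0462 and 0.0432, limma). These p-values are a description, because the probes entered through the few arrays where they were high. Both calls ended without arrays 20 and 23. Both arrays also had many other probes far above the rest of their cell type, and the part of the array or of other cells in this result was not tested.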

How the results depend on the processing

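Counts of subunit probes that passed moved as follows under other settings. For genotype in cDC1s the count of 1 became 2 without background correction, 2 with median scaling and 2 with the strict detection filter, and 0 with array weights, with cDC1 arrays alone, without arrays 20 and 23, without arrays 12, 20 and 23, at an adjusted p below 0.01 and at a log2 difference of at least 1. Leaving out 1 array gave 0 to 6 there, 0 to 1 in macrophages and 0 to 0 in monocytes. For the genotype effect in cDC1s against macrophages, the count of 2 became 1 without background correction and 0 with an offset of 50, cyclic loess, no filter, array weights, the compared cell types alone, arrays 20 and 23 left out, arrays 12, 20 and 23 left out, and an adjusted p below 0.01. Leaving out 1 array gave 0 to 5, and 0 to 4 against monocytes. For cDC1s against macrophages, 6 became 3 with the compared cell types alone and 2 at an adjusted p below 0.01, with 3 to 8 when 1 array was left out, and for cDC1s against monocytes 4 to 8. For macrophages against monocytes, 6 became 2 with median scaling, 1 with WT arrays alone and 0 at a log2 difference of at least 1, with 5 to 7 when 1 array was left out. In T cells the count of 1 became 0 without background correction and 3 with median scaling. Signs turned with median scaling for Chd4 probe 1 (-0.48) and Hdac2 (-0.15) between cDC1s and monocytes and for Mta3 probe 1 between cDC1s and macrophages (-0.23), and with Mbd2-/- arrays alone for Rbbp7 probe 2 between cDC1s and macrophages (-0.15). The cause of these shifts was not tested. Where 1 cDC1 array of WT cells remained, it was assumed to vary like the other groups.

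Median scaling moved the median of all probes to -0.26 for genotype in monocytes, -0.37 for genotype in cDC1s, -0.15 and -0.14 for cDC1s against monocytes and macrophages, 0.19 and -0.20 for the genotype effect in macrophages against monocytes and cDC1s against macrophages, and -0.38 in T cells. The share of calls that were higher moved from 51.4% to 2.55% for genotype in cDC1s, from 54.3% to 81.7% in macrophages, from 47.4% to 28.6% in monocytes, from 54.0% to 26.6% for cDC1s against monocytes and from 53.3% to 24.5% for cDC1s against macrophages, and cyclic loess moved the share in macrophages to 65.1%. The settings that left out arrays together and that took background from the negative control probes were chosen after seeing the data. No paired analysis was possible because the labels give the groups no shared replicate number. As a random block, column position had a consensus correlation of 0.0321 and numbers 10 apart 0.194. With the latter, 2 subunit probes gained a call between macrophages and monocytes, Rbbp4 probe 2 (adjusted p from 0.0691 to 0.042) and Rbbp7 probe 4 (from 0.0664 to 0.041).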
